A study of Mus musculus with 9 samples.

Results

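The genes described here encode 10 enzymes and helper proteins of antioxidant defence in mouse stomach cells. They are the superoxide dismutases Sod1 and Sod2, catalase (Cat), the glutathione peroxidases Gpx1 and Gpx4, the peroxiredoxins Prdx3 and Prdx5, the mitochondrial thioredoxin Txn2, the glutathione synthesis subunit Gclm and the quinone reductase Nqo1. Every probe set that the platform annotation pairs with exactly 1 gene was used if that gene was among the 10, which gave 21 of 45037 probe sets. These covered 9 of the 10 genes. Prdx5 had 0 such probe sets and was not analysed here. A probe set was tested if at least 3 of the 9 arrays had it above their median signal, which held for 20 of the 21, and the other was a dim Sod1 probe set that exceeded the median on 0 arrays.

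Expression was measured on 9 Affymetrix arrays, 3 in each of 3 groups, all from C57BL/6 mice. The Parietal group held gastric parietal cells. The Isthmus group held corpus cells sorted as Mist1+ Tomato+ once Lgr5+ cells had been ablated, and the Chief group held Mist1+ Tomato+ corpus cells without that ablation. Tomato is a red fluorescent reporter, Mist1 a transcription factor of enzyme-secreting cells encoded by Bhlha15, and Lgr5 a Wnt pathway receptor used as a stem cell marker. The sources used here do not give how the parietal cells were collected, how Lgr5+ cells were ablated, the ages of the mice, or whether the 3 samples of a group came from separate animals. The p-values thus rest on a spread between samples that may be partly technical, and in the Isthmus group only technical. RNA of sex-linked genes, given below, differed within the Parietal and Chief groups, so the samples of each did not all come from the same animal. Values are log2 MAS5 signals as deposited, and the precision is limited by the number of arrays.

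As background, superoxide dismutases turn superoxide into hydrogen peroxide, SOD1 mostly in the cytosol and SOD2 in the mitochondrial matrix. Catalase, which sits in peroxisomes, breaks hydrogen peroxide down directly, while glutathione peroxidases and peroxiredoxins reduce it with electrons that come from NADPH through glutathione or thioredoxin. Parietal cells secrete acid with an ATP-driven proton pump and are known for their dense packing with mitochondria, a main site of superoxide formation. Nqo1 and Gclm are textbook targets of Nrf2, the transcription factor encoded by Nfe2l2, which binds antioxidant response elements.

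Promoters are shown for the genes with the largest differences between groups, Cat, Sod2 and Nqo1, and for Gclm, which shares its known regulator with Nqo1. Each line gives the 250 bases before the RefSeq start of the gene, 5′ to 3′ on the strand of the gene, in the mouse build GRCm38.p6. Capitals mark matches on either strand to the antioxidant response element core TGACNNNGC, the GC box GGGCGG, the CCAAT box CCAAT, the TATA box TATAAA and the estrogen-related receptor element AAGGTCA. The Cat window is chr2:103485154-103485403 on the minus strand, that of Sod2 chr17:13007589-13007838 on the plus strand, that of Nqo1 chr8:107403206-107403455 on the minus strand, and that of Gclm chr3:122245307-122245556 on the plus strand.
Cat: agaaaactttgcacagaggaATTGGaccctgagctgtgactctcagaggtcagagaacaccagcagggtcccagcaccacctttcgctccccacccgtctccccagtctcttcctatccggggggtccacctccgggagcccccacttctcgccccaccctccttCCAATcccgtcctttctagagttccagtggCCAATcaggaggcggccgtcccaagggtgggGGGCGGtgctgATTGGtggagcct
Sod2: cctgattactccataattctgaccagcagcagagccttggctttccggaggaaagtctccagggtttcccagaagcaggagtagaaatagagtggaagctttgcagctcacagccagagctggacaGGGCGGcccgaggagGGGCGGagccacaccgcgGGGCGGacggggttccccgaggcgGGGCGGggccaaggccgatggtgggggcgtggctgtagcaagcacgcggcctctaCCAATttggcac
Nqo1: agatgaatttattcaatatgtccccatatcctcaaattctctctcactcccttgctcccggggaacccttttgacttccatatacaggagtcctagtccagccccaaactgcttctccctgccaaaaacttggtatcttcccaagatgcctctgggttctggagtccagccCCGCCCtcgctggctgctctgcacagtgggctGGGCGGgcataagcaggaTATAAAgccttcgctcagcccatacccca
Gclm: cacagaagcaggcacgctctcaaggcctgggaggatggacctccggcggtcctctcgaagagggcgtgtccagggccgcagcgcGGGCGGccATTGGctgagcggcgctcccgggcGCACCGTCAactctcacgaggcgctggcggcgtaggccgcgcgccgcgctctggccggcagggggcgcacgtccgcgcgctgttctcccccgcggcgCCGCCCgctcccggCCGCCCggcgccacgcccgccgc

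The Cat window held 4 CCAAT boxes and 1 GC box, and the Sod2 window 4 GC boxes and 1 CCAAT box. The Nqo1 window held a TATA box 24 to 29 bases before the start and 2 GC boxes, and no match to the antioxidant response element core. Bases outside each window were not read, so whether Nqo1 has a match to this core farther from its start was not tested. In the Gclm window that core lay 126 to 134 bases before the start, on the minus strand. Of all 32851 promoters read in the same way, 10.2% held the antioxidant response element core, 32.7% the GC box, 33.8% the CCAAT box, 12.4% the TATA box and 4.08% the estrogen-related receptor element. Among 13 promoters of the 10 genes, the antioxidant core was also found in Sod1, 48 to 56 bases before the start, and the estrogen-related receptor element in 0. These matches are descriptions of the sequence, not evidence of binding.

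The groups were first set against markers of gastric cells, since bulk samples can hold more than 1 cell type. All 11 parietal cell markers rose in the Parietal group relative to either other group, and their summed signal was 98020 to 114086 on the Parietal arrays, 20107 to 38785 on the Isthmus arrays and 22053 to 41942 on the Chief arrays. The proton pump subunit Atp4a was bright on the sorted arrays too, at 12.09 to 13.21 on the Isthmus and 12.63 to 13.75 on the Chief arrays. The summed signal of 10 chief cell markers was 25326 to 33693, 32486 to 44062 and 93512 to 132625 on the Parietal, Isthmus and Chief arrays. Bhlha15 read 5.03, 1.34 and 7.36 on the Isthmus arrays and 10.75, 10.05 and 9.20 on the Chief arrays, and Lgr5 read 2.93, 4.83 and 5.97 on the Isthmus arrays and 8.05, 7.54 and 9.36 on the Chief arrays. Chief replicate 3 stood apart, with a summed fibroblast marker signal of 25783 against 171.5 and 411 on the other Chief arrays, and a red blood cell sum of 24697 against 4175 and 3953. It and Parietal replicate 1 were the arrays with high Xist, an RNA of female cells, at 11.72 and 13.13 against 4.46 to 5.93 on the others. The Y-linked Eif2s3y read 2.84 on Parietal replicate 1, 10.63 on Chief replicate 3 and 11.11 to 11.59 on the others. Parietal replicate 1 thus read as female and Parietal replicates 2 and 3 as male, while Chief replicate 3 held both RNAs. Without Chief replicate 3, none of the calls on antioxidant probe sets changed. In such bulk samples fewer cells of a type and less RNA per cell cannot be told apart.

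Parietal samples had more Sod2, Cat, Gpx1 and Gpx4 RNA than Chief samples, by 1.42-fold to 3.36-fold, and 3.07-fold less Nqo1 RNA. Against the Isthmus samples the same 4 genes rose by 1.59-fold to 3.66-fold, Sod1 and Txn2 rose too, and Nqo1 fell 3.35-fold. A gene is counted here by its brightest probe set, the one with the highest mean over the 9 arrays, and a call is a limma adjusted p under 0.05. Between Parietal and Chief, 4 of the 9 genes were called higher, 1 lower and 4 were not called, where 9.87% of the 11006 genes tested were called higher and 12.7% lower (22.6% in either direction). Between Parietal and Isthmus it was 6 higher, 1 lower and 2 not called, against 11.4% and 14.3% of all genes (25.7% in either direction). Between Isthmus and Chief 0 of 9 were called by limma, against 1.41% of all genes (0.336% higher and 1.07% lower), and 3 of the 9 (Sod1, Prdx3 and Gclm) had an unadjusted p under 0.05. The median log2 difference of the 9 genes was 0.64, 0.67 and -0.16 in these comparisons, beside -0.10, -0.09 and 0.03 over all genes tested. The first and second comparisons share the Parietal arrays, so their results are not independent of each other.

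**Figure D1:**
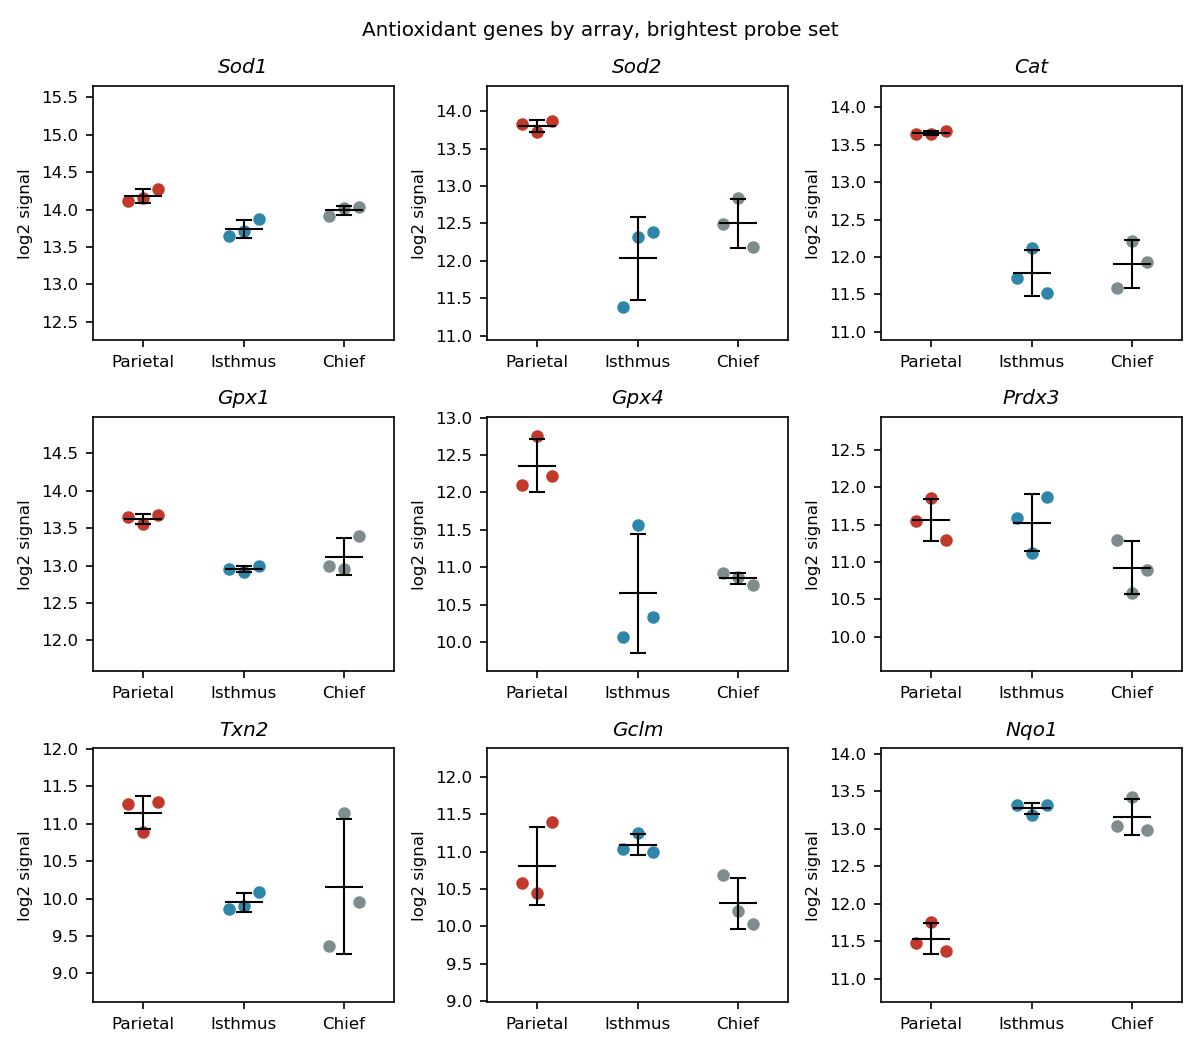
Log2 signal of the brightest probe set of each of 9 antioxidant genes on the Parietal, Isthmus and Chief arrays. Points are arrays, and bars are the mean and SD of 3 arrays. All panels span the same range of log2 units. The Parietal points of Sod2, Cat, Gpx1 and Gpx4 lie above all others, those of Nqo1 lie below all others, and those of Prdx3 and Gclm overlap both other groups.

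By arrays, the Parietal values lay wholly above the Chief values in 5 of the 9 genes and below in 1, where 18.7% and 21.2% of all genes tested did so (39.8% in either direction). Between Parietal and Isthmus the counts were 6 and 1, against 20.3% and 24.0% (44.4% in either direction). Between Isthmus and Chief they were 1 and 1, Gclm above and Sod1 below, against 10.6% and 10.5%. Counted by probe sets, 10 of 20 were called higher and 1 lower between Parietal and Chief, against 7.59% and 10.6% of the 25662 tested. Between Parietal and Isthmus 13 were called higher and 1 lower, against 9.03% and 11.2%, and between Isthmus and Chief 0 were called, against 1.19% (0.222% higher and 0.966% lower).

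**Figure D2:**
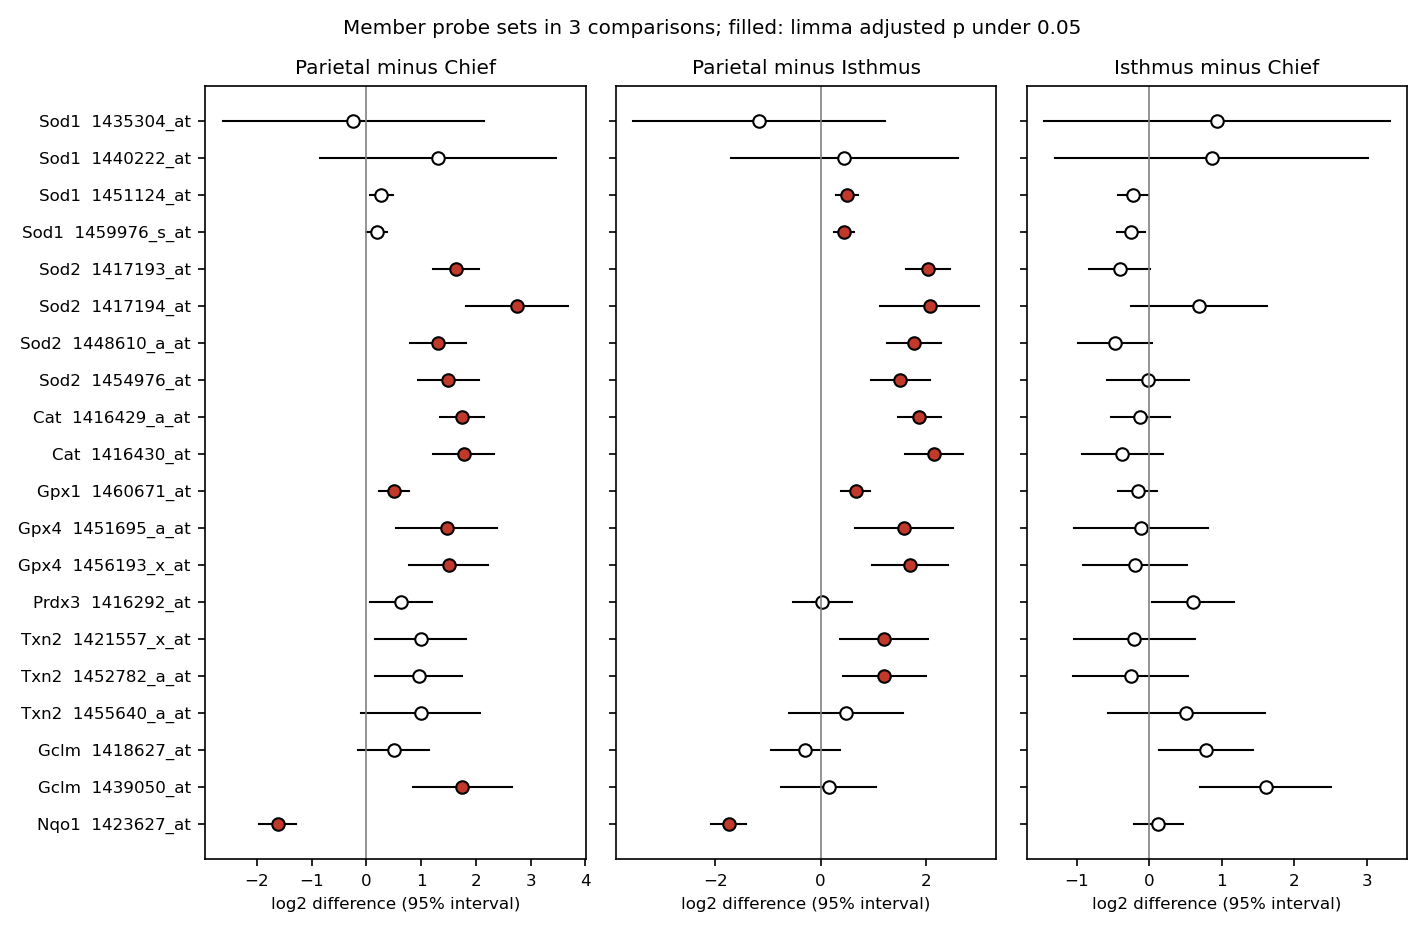
Log2 difference of each of the 20 tested probe sets in the 3 comparisons, with its 95% interval from limma. Filled points have an adjusted p under 0.05. In both Parietal comparisons the 4 Sod2 and 2 Cat probe sets lie above 0 and Nqo1 lies below it, and the Isthmus minus Chief panel has no filled point.

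Sod1, the cytosolic copper and zinc superoxide dismutase, was bright and steady. Its probe set 1459976_s_at read 14.11, 14.15 and 14.28 on the Parietal arrays, 13.64, 13.71 and 13.87 on the Isthmus arrays, and 13.92, 14.02 and 14.03 on the Chief arrays. The 3 groups did not overlap, with Parietal highest and Isthmus lowest, but the gaps were small. Parietal exceeded Isthmus by 0.44 (95% interval 0.25 to 0.63, adjusted p = 0.0036), or 1.36-fold. Against Chief the difference was 0.19 (95% interval -0.0022 to 0.38, adjusted p = 0.165), and Isthmus minus Chief was -0.25 (adjusted p = 0.201), which turned to 0.20 after quantile normalization and 0.13 after median centring, again with no call. The second bright probe set, 1451124_at, gave 0.51 against Isthmus (adjusted p = 0.00237) and 0.28 against Chief (adjusted p = 0.0634). Both calls against Isthmus ended after quantile normalization and when the fit had no intensity trend, with adjusted p-values of up to 0.377 for the brightest probe set. Quantile normalization also gave the first probe set a call against Chief (0.30, adjusted p = 0.0174), as did centring each array on its median (0.88, adjusted p = 6.37e-05). Another 2 Sod1 probe sets, 1435304_at and 1440222_at, were dimmer and more scattered, at 5.23 to 10.36 and 4.34 to 8.21 over the 9 arrays, and gave no call. In the Parietal group 1435304_at pointed lower, by -0.24 from Chief and -1.17 from Isthmus. Probe set 1440222_at pointed higher, by 1.31 and 0.45.

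Sod2, the manganese enzyme of the mitochondrial matrix, rose in the Parietal group on all of its probe sets. The brightest, 1448610_a_at, read 13.83, 13.72 and 13.87 on the Parietal arrays, 11.39, 12.32 and 12.39 on the Isthmus arrays, and 12.49, 12.84 and 12.18 on the Chief arrays. The Parietal arrays were tightly grouped above all 6 others, and the Isthmus and Chief arrays overlapped. The group means were 13.81 ± 0.08, 12.03 ± 0.56 and 12.50 ± 0.33 (SD, n = 3 each). Parietal exceeded Chief by 1.30 (95% interval 0.79 to 1.81, adjusted p = 0.00208), or 2.47-fold, and exceeded Isthmus by 1.77 (95% interval 1.26 to 2.28, adjusted p = 0.00021), or 3.42-fold. The difference of Isthmus from Chief was -0.47 (95% interval -0.98 to 0.04, adjusted p = 0.374).

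The other 3 Sod2 probe sets, 1417193_at, 1454976_at and 1417194_at, gave differences of 1.64, 1.50 and 2.75 between Parietal and Chief, and of 2.05, 1.52 and 2.07 between Parietal and Isthmus, all called. Probe set 1417194_at, with the largest difference from Chief, read 10.47, 10.82 and 10.46 on the Parietal arrays, 7.82, 9.09 and 8.62 on the Isthmus arrays, and 7.71, 8.08 and 7.70 on the Chief arrays. It alone of the 4 was higher in the Isthmus than in the Chief group, by 0.68, which missed the threshold (adjusted p = 0.499). The 4 probe sets thus gave the same call against both groups while the size ran from 1.30 to 2.75. Each of these 8 Sod2 calls was kept under each alternative processing that was run.

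Cat, the peroxisomal catalase, had the tightest Parietal values of the 9 genes. On probe set 1416429_a_at it read 13.64, 13.65 and 13.69 on the Parietal arrays, 11.72, 12.12 and 11.52 on the Isthmus arrays, and 11.58, 12.22 and 11.94 on the Chief arrays. No Parietal array came within 1 log2 unit of any other array, and Isthmus and Chief covered nearly the same range. The mean was 13.66 ± 0.03 in Parietal, 11.79 ± 0.31 in Isthmus and 11.91 ± 0.32 in Chief samples (SD, n = 3 each). Parietal exceeded Chief by 1.75 (95% interval 1.34 to 2.16, adjusted p = 5.48e-05), or 3.36-fold, and Isthmus by 1.87 (95% interval 1.46 to 2.28, adjusted p = 3.28e-05), or 3.66-fold. Isthmus minus Chief was -0.13 (95% interval -0.54 to 0.28, adjusted p = 0.803). The second probe set, 1416430_at, gave 1.78 and 2.16 in the Parietal comparisons (adjusted p = 0.000461 and 0.000103). All 4 Cat calls were kept under each alternative.

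Gpx1, a selenium-dependent glutathione peroxidase of cytosol and mitochondria, rose by less. It read 13.65, 13.55 and 13.68 on the Parietal arrays, 12.96, 12.92 and 13.00 on the Isthmus arrays, and 13.00, 12.96 and 13.40 on the Chief arrays, by its single probe set 1460671_at. Parietal arrays lay above all others, and the nearest was Chief replicate 3. The difference was 0.51 from Chief (95% interval 0.24 to 0.78, adjusted p = 0.0134) and 0.67 from Isthmus (95% interval 0.40 to 0.94, adjusted p = 0.00227), which is 1.42-fold and 1.59-fold. Without Chief replicate 3 the difference from Chief was 0.65 (adjusted p = 0.00314). The call against Chief ended without Parietal replicate 3 (adjusted p = 0.054), and with no intensity trend both calls ended (adjusted p = 0.211 against Chief and 0.106 against Isthmus).

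Gpx4, the glutathione peroxidase that reduces lipid peroxides in membranes, rose on both of its probe sets. Probe set 1456193_x_at, whose suffix marks probes that may also bind related transcripts, read 12.10, 12.76 and 12.22 on the Parietal arrays, 10.07, 11.56 and 10.33 on the Isthmus arrays, and 10.92, 10.87 and 10.77 on the Chief arrays. All 3 Parietal arrays exceeded the rest, with Isthmus replicate 2 the closest to them. Parietal exceeded Chief by 1.51 (95% interval 0.78 to 2.23, adjusted p = 0.00729), or 2.84-fold, and Isthmus by 1.71 (95% interval 0.98 to 2.43, adjusted p = 0.00299), or 3.26-fold. Probe set 1451695_a_at gave 1.47 (adjusted p = 0.031) and 1.58 (adjusted p = 0.0199). With no intensity trend the brighter probe set missed the threshold against Chief (adjusted p = 0.0554), and its call against Isthmus was kept under each alternative. The dimmer probe set lost its call against Chief under 7 of 18 alternatives, among them the removal of any 1 Parietal array or of Chief replicate 1 or 2 (adjusted p of up to 0.106), and against Isthmus under 5, among them without Parietal replicate 1 or 2 and without Isthmus replicate 1 (adjusted p of up to 0.0776).

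Prdx3, the mitochondrial peroxiredoxin, was not called in any comparison. It read 11.55, 11.85 and 11.29 on the Parietal arrays, 11.59, 11.12 and 11.87 on the Isthmus arrays, and 11.30, 10.59 and 10.89 on the Chief arrays. Parietal and Isthmus arrays overlapped fully, and both groups reached into the Chief range. The difference between Parietal and Isthmus was 0.04, with a 95% interval of -0.53 to 0.61 (adjusted p = 0.943), and those from Chief were 0.64 for Parietal (95% interval 0.07 to 1.21, adjusted p = 0.116) and 0.60 for Isthmus (95% interval 0.03 to 1.17, adjusted p = 0.299). After median centring the difference of Parietal from Chief was 1.33 and was called (adjusted p = 0.005).

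Txn2, the mitochondrial thioredoxin that returns electrons to Prdx3, turned on a single Chief array. On probe set 1421557_x_at it read 11.26, 10.89 and 11.29 on the Parietal arrays, 9.86, 9.90 and 10.09 on the Isthmus arrays, and 9.37, 11.14 and 9.96 on the Chief arrays. As with Gpx4, the suffix marks probes that may also bind related transcripts. Chief replicate 2 lay within the Parietal range and the other Chief arrays within or below the Isthmus range. That array was also the highest Chief array on the other Txn2 probe sets, at 10.45 on 1452782_a_at and 11.01 on 1455640_a_at, against 9.57 and 9.09, and 8.44 and 9.40, on Chief replicates 1 and 3. Parietal minus Chief was 0.99 on the brightest probe set (95% interval 0.15 to 1.83, adjusted p = 0.0971), and 1.48 without Chief replicate 2 (adjusted p = 0.00911). Parietal exceeded Isthmus by 1.20 (95% interval 0.36 to 2.03, adjusted p = 0.0441), or 2.29-fold. That call ended under 11 of 19 alternatives, including the removal of any 1 Parietal or Isthmus array (adjusted p of up to 0.128). Of the other probe sets, 1452782_a_at gave 1.21 against Isthmus (adjusted p = 0.0328), a call lost under 8 of 18 alternatives, including the removal of any 1 Parietal array or of Isthmus replicate 2 or 3 (adjusted p of up to 0.0994). Probe set 1455640_a_at gave 0.48 (adjusted p = 0.556).

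Gclm encodes the modifier subunit of glutamate-cysteine ligase, which makes the precursor of glutathione, and its 2 probe sets differed on the call. On the brighter, 1418627_at, it read 10.58, 10.44 and 11.40 on the Parietal arrays, 11.04, 11.25 and 10.99 on the Isthmus arrays, and 10.69, 10.21 and 10.03 on the Chief arrays. The Isthmus arrays were all above the Chief arrays while 2 Parietal arrays lay within the Chief range and the third lay above the Isthmus range. None of its differences was called, at 0.50 for Parietal minus Chief (95% interval -0.15 to 1.15, adjusted p = 0.291), -0.29 for Parietal minus Isthmus (95% interval -0.94 to 0.36, adjusted p = 0.562) and 0.78 for Isthmus minus Chief (95% interval 0.13 to 1.43, adjusted p = 0.24).

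The dimmer Gclm probe set, 1439050_at, read 9.27, 10.09 and 9.49 on the Parietal arrays, 9.68, 9.35 and 9.36 on the Isthmus arrays, and 7.50, 8.28 and 7.80 on the Chief arrays. Here the Chief arrays stood below both other groups, which overlapped. Parietal exceeded Chief by 1.76 (95% interval 0.85 to 2.66, adjusted p = 0.0107), or 3.38-fold, a call that ended without Parietal replicate 2 (adjusted p = 0.0562). Isthmus minus Chief was 1.60 (95% interval 0.70 to 2.51, adjusted p = 0.0871) and missed the threshold under each alternative, with adjusted p-values of 0.0518 to 0.254. Parietal minus Isthmus was 0.15 (adjusted p = 0.842).

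Nqo1, a cytosolic enzyme that reduces quinones with electrons from NADH or NADPH, was the only 1 of the 9 genes that was called lower in the Parietal group. Its probe set 1423627_at read 11.47, 11.76 and 11.37 on the Parietal arrays, 13.32, 13.19 and 13.32 on the Isthmus arrays, and 13.04, 13.43 and 12.99 on the Chief arrays. All Parietal arrays lay below all others by more than 1 log2 unit, while Isthmus and Chief arrays overlapped. The group means were 11.53 ± 0.20, 13.28 ± 0.08 and 13.15 ± 0.24 (SD, n = 3 each). The difference was -1.62 from Chief (95% interval -1.96 to -1.28, adjusted p = 2.47e-05) and -1.74 from Isthmus (95% interval -2.08 to -1.41, adjusted p = 1.34e-05), and Isthmus minus Chief was 0.12 (95% interval -0.21 to 0.46, adjusted p = 0.76). Both calls were kept under each alternative. Median centring moved the difference from Chief to -0.93 (adjusted p = 0.00394), with the median of all tested probe sets then at 0.52.

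**Figure D3:**
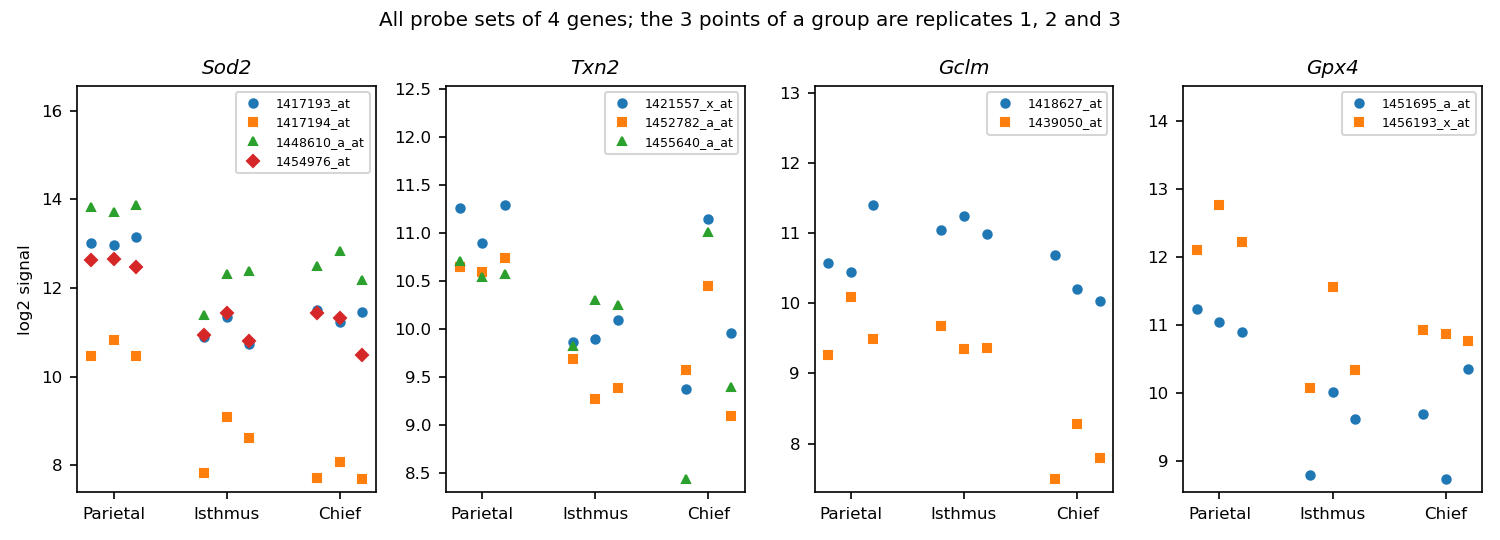
Log2 signal of all probe sets of Sod2, Txn2, Gclm and Gpx4, by array. The 3 points of a group stand for replicates 1, 2 and 3, and each symbol is a probe set. The 4 Sod2 probe sets are all highest in the Parietal group, Chief replicate 2 is the highest Chief array on the 3 Txn2 probe sets, and only the dimmer Gclm probe set places the Chief arrays wholly below both other groups.

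Within groups each of the 9 genes varied less than the median gene. The pooled SD within groups ran from 0.09 for Sod1 to 0.54 for Txn2, beside a median of 0.58 over all genes tested. The brightest probe sets of these 9 genes exceeded the array median on all 9 arrays, whereas the genes tested include dimmer ones. Genes were not matched for signal level, so the lower spread cannot be read as a trait of these genes. Of the called differences, those of Sod1 and Gpx1 were below 1 log2 unit, and both ended when the estimate of the spread did not depend on the signal level.

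Markers of other cells also differed between the groups, and their part in the antioxidant differences was not tested. The array with the highest summed parietal marker signal was replicate 2 in both sorted groups, at 38785 in the Isthmus and 41942 in the Chief group. In the Chief group that array was also the highest for Sod2, Cat, Txn2 and Nqo1, or 4 of the 9 genes, and in the Isthmus group for Cat, Gpx4 and Gclm, or 3 of 9. Nqo1 is counted here although it was lower in the Parietal group. Any array is the highest of 3 for some genes, and the share over all genes was not computed. These counts thus show no link to the parietal signal. Beside the low Nqo1 of the Parietal group stood lower summed signals of pit cell markers, at 52241 to 59062 on the Parietal, 67444 to 80509 on the Isthmus and 104122 to 129199 on the Chief arrays. The endocrine marker sum was 429 to 657, 18776 to 42453 and 40687 to 78533 in the same groups, and the sum of 4 markers of dividing cells 3877 to 5389, 15501 to 19596 and 7696 to 17570. All 7 leukocyte and all 4 endothelial markers were below the array median on each Parietal and Isthmus array.

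**Figure D4:**
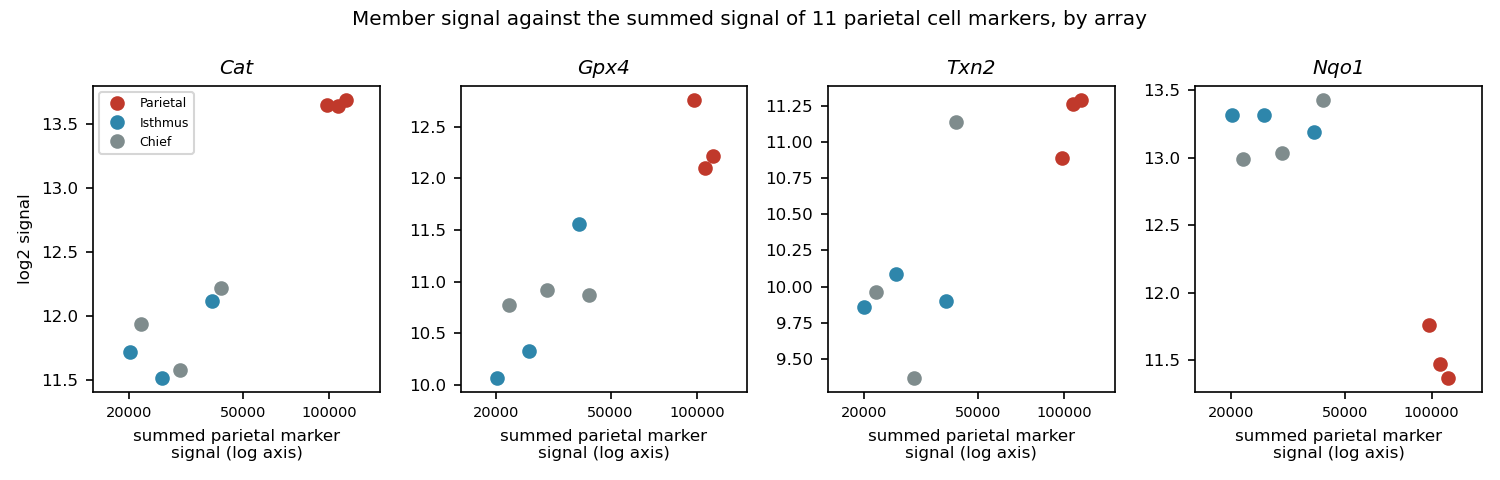
Log2 signal of Cat, Gpx4, Txn2 and Nqo1 against the summed signal of 11 parietal cell markers (log axis), 1 point per array. The Parietal arrays stand apart at 98020 to 114086. Chief replicate 2, the Chief array with the highest sum, lies beside the Parietal arrays for Txn2 but far from them for Cat and Nqo1.

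The genes whose values most resembled those of the 3 members with the widest range of group means were then named, by the root mean square of the log2 differences over the 9 arrays after each gene was centred, among 11005 other genes. For Cat these were Hibadh, a mitochondrial enzyme of valine breakdown (0.18), Chchd7 (0.19) and Slc4a2, an anion exchanger of the parietal cell (0.21). For Sod2 they were Nnt, the mitochondrial transhydrogenase that makes NADPH (0.17), Spout1 (0.17) and Endog, a mitochondrial nuclease (0.18). For Nqo1 they were Myadm (0.09), Lurap1l (0.15) and B4galnt1, a ganglioside synthase (0.16). These values describe likeness on these arrays only.

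Lists of neighbouring pathways were counted in the same fits, again by the brightest probe set. NADPH supply showed calls in both directions. Of 9 genes tested, 2 were higher and 2 lower between Parietal and Chief, and 2 higher and 4 lower between Parietal and Isthmus. The mitochondrial sources Idh2 and Nnt were higher by 1.26 and 1.43 than in Chief (adjusted p = 0.00176 and 0.00307) and by 1.09 and 1.71 than in Isthmus, with Pgd, of the pentose phosphate pathway, lower than in Isthmus by 0.44 on the log2 scale (adjusted p = 0.0362, and up to 0.661 over the 8 alternatives that ended the call). The cytosolic malic enzyme Me1 fell by 2.67 and 2.95 on the log2 scale (adjusted p = 0.000112 and 5.33e-05). The Nnt call against Chief ended with no intensity trend and without both arrays with high Xist (adjusted p of up to 0.055). Nnt read 14.18 ± 0.14 in Parietal, 12.47 ± 0.58 in Isthmus and 12.75 ± 0.55 in Chief samples (SD, n = 3 each). The Nnt and Pgd probe sets carry the suffix described above for Gpx4.

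Among 22 genes of Nrf2 control and targets, which do not include Nqo1 and Gclm, more were called lower than higher in the Parietal group. Median centring turned these counts round against Chief, as it did over all tested probe sets. Against Chief 2 rose, 6 fell and 14 were not called, and against Isthmus 4 rose, 10 fell and 8 were not called. Aldh3a1, an aldehyde dehydrogenase, was lower by 3.87 and 4.19 on the log2 scale (adjusted p = 3.14e-06 and 1.89e-06), Blvrb, a biliverdin reductase, by 2.28 and 2.22, and Ptgr1, a prostaglandin reductase, by 1.48 and 1.29. Maff, a small Maf partner of Nrf2, averaged 2.74 ± 0.77 in Parietal, below the array medians, against 10.57 ± 1.04 in Isthmus and 7.86 ± 0.87 in Chief samples (SD, n = 3 each). No detection calls were used, so where any array of the dimmer group was below its own median signal, each array of that group was set to the higher of its value and that median. Here and below, 'at least' refers only to this replacement of dim values. Such a fold makes no allowance for the spread between arrays or the choice of processing. By this bound Maff was at least 4.07-fold lower than in Chief and at least 26.5-fold lower than in Isthmus samples (limma adjusted p = 0.000646 and 2.93e-05). Nfe2l2 itself, which was added after its values were seen, read 12.55, 12.53 and 12.65 on the Parietal, 12.85, 12.98 and 12.99 on the Isthmus and 12.39, 13.00 and 13.01 on the Chief arrays, with no call (adjusted p = 0.387 against Chief and 0.139 against Isthmus). Median centring turned the list's median difference from Chief to 0.26, against -0.44 with the deposited scaling, and its calls to 8 higher and 5 lower. Over all 25662 tested probe sets the median was then 0.52, with 5230 called higher and 1355 lower. Against Isthmus it was 0.22, with 3334 and 1963. The median-centred values of the lists below stand beside these. Abcc4, a transporter, was at least 3.86-fold lower than in Isthmus samples (adjusted p = 0.0468), a call that ended under 12 of 19 alternatives, among them without Parietal replicate 2 and without any 1 Isthmus or Chief array (adjusted p of up to 0.144).

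The glutathione transferases, which attach glutathione to foreign compounds and lipid products, also had more lower than higher calls, although median centring moved the median difference from Chief just above 0. Of 21 tested, 1 rose and 8 fell against Chief, and 2 rose and 7 fell against Isthmus. The microsomal enzymes Mgst2 and Mgst1 fell by 4.23 and 2.05 relative to Chief on the log2 scale (adjusted p = 3.19e-05 and 0.00569), and by 4.23 and 3.17 relative to Isthmus. After median centring the calls were 4 higher and 5 lower against Chief, with a median of 0.03 in place of -0.67. That was below the 0.52 over all tested probe sets. For glutathione synthesis and recycling, 2 of 9 tested rose and 0 fell against Chief, and 5 rose and 2 fell against Isthmus, which after median centring became 5 and 0 against Chief and stayed 5 and 2 against Isthmus. The largest calls against Isthmus were Oplah, a 5-oxoprolinase of the glutathione cycle, at least 4.51-fold higher (adjusted p = 0.0277), Hagh, the second glyoxalase, higher by 2.18 (adjusted p = 0.0146), and Ggct, a cyclotransferase, higher by 1.66 (adjusted p = 0.00376). The Oplah call ended under 6 alternatives, among them without any 1 Parietal array and without Isthmus replicate 2 or 3, and the Hagh call under 3, among them without Parietal or Isthmus replicate 3 (adjusted p of up to 0.0908 and 0.0663). Against Chief Ggct was higher by 1.04 (adjusted p = 0.0494), a call that 14 of 19 alternatives ended, among them the removal of any 1 Parietal or Isthmus array or of Chief replicate 2 or 3. Oplah and Hagh were not called against Chief (adjusted p = 0.0862 and 0.055), though 2 and 9 of 19 alternatives called them. Glo1, which clears methylglyoxal with glutathione, was higher by 0.67 and 0.74 (adjusted p = 0.00861 and 0.00419), calls that ended with no intensity trend (adjusted p = 0.121 and 0.0851). Gsr, the reductase that regenerates glutathione, was not called, at 13.01 ± 0.11 in Parietal, 13.38 ± 0.13 in Isthmus and 12.91 ± 0.23 in Chief samples (SD, n = 3 each). Of 19 alternatives, 1 called Gsr between Parietal and Chief, 4 between Parietal and Isthmus and 2 between Isthmus and Chief. Gclc, the catalytic partner of Gclm, was likewise added after its values were seen. It read 10.81, 11.35 and 11.29 on the Parietal, 12.22, 12.01 and 12.55 on the Isthmus and 11.62, 11.32 and 11.34 on the Chief arrays, and was lower in Parietal than in Isthmus by 1.11 on the log2 scale (adjusted p = 0.00299).

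Of 7 other tested superoxide dismutases and peroxide-removing enzymes, Prdx2, a cytosolic peroxiredoxin, was the only 1 called higher in the Parietal group, by 1.38 against Chief and 1.40 against Isthmus (adjusted p = 4.64e-05 and 4.18e-05). Prdx4, the peroxiredoxin of the secretory pathway, fell by 1.39 and 1.14 on the log2 scale (adjusted p = 0.00321 and 0.00964), both calls ending after median centring (adjusted p = 0.111 and 0.0726), and Gpx8, a peroxidase of the endoplasmic reticulum, was at least 11.3-fold lower than in Chief by the same bound (adjusted p = 0.00614). Its difference from Isthmus was -2.14 (adjusted p = 0.115). The call against Chief ended without both arrays with high Xist (adjusted p = 0.0697). Of 14 thioredoxin and glutaredoxin genes, 3 rose and 1 fell against Chief, and 4 rose and 0 fell against Isthmus, while median centring gave 7 and 0 against Chief, with a median of 1.08 in place of 0.39, and 4 and 0 against Isthmus. Glrx5, the mitochondrial glutaredoxin of iron-sulfur cluster transfer, was higher by 1.48 and 1.10 (adjusted p = 0.00145 and 0.00832). Msra, a methionine sulfoxide reductase, was higher by 1.22 and 1.21 (adjusted p = 0.0407 and 0.0386), and Txnrd2, the mitochondrial thioredoxin reductase that serves Txn2, by 1.74 against Chief (adjusted p = 0.0244). Against Isthmus Txnrd2 differed by 1.01 (adjusted p = 0.167). The Msra calls ended under 10 and 8 of 19 alternatives, among them the removal of any 1 Parietal array, and the Txnrd2 call under 4, among them without Parietal replicate 2 or 3 and without Chief replicate 3 (adjusted p of up to 0.222 for Msra and 0.114 for Txnrd2).

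Among 14 tested genes of selenoprotein synthesis and other selenoproteins, Sephs2, which makes the selenium donor needed by Gpx1 and Gpx4, was higher by 1.22 against Chief and 0.73 against Isthmus (adjusted p = 0.000112 and 0.00327), with the second call ending with no intensity trend (adjusted p = 0.0966). In all, 1 of the 14 rose and 1 fell against Chief, and 2 rose and 0 fell against Isthmus, while median centring gave 5 and 0 against Chief, with a median of 0.44 in place of -0.25, and 4 and 0 against Isthmus, with a median of 0.29 in place of -0.03. The other call against Isthmus was Selenos, of the endoplasmic reticulum, higher by 0.71 (adjusted p = 0.0193) and lost under 5 alternatives, among them without Parietal replicate 1 or 3 and without Isthmus replicate 3 (adjusted p of up to 0.138). Of 9 tested genes of iron, copper and metal binding, 3 rose and 1 fell against Chief, and 5 rose and 2 fell against Isthmus, while median centring gave 6 and 1, and 5 and 1. The transferrin receptor Tfrc was higher by 1.27 and 0.51 (adjusted p = 0.000156 and 0.0385) and also rose in Isthmus relative to Chief, by 0.76 (adjusted p = 0.0399). Its call against Isthmus ended under 9 of 19 alternatives, among them the removal of any 1 Parietal array or of Isthmus replicate 1 or 2 (adjusted p of up to 0.247). Mt2, a metallothionein, fell by 2.04 and 1.96 on the log2 scale (adjusted p = 8.97e-06 and 1.23e-05). Of 7 tested oxidant sources, 1 rose and 3 fell against Chief, and 0 rose and 1 fell against Isthmus, while median centring gave 1 and 1, and 0 and 1. Cyba, a subunit of NADPH oxidases, fell against both groups, by at least 4.46-fold and 5.80-fold (adjusted p = 0.0114 and 0.00555). Its call against Chief ended with Chief replicate 2 or both high-Xist arrays removed (adjusted p = 0.110 at the highest). Against Chief, Duoxa2, which matures the oxidase Duox2, was at least 3.22-fold lower (adjusted p = 0.0283) and Ero1b lower by 1.94 on the log2 scale (adjusted p = 0.011). The Duoxa2 call ended under 7 alternatives, among them without Parietal replicate 3 and without any 1 Chief array, and the Ero1b call under median centring and with no intensity trend (adjusted p of up to 0.0953 and 0.0908). The gene that rose was Ero1a, a thiol oxidase, by 0.75 (adjusted p = 0.037), which is named after its value was seen.

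**Figure D5:**
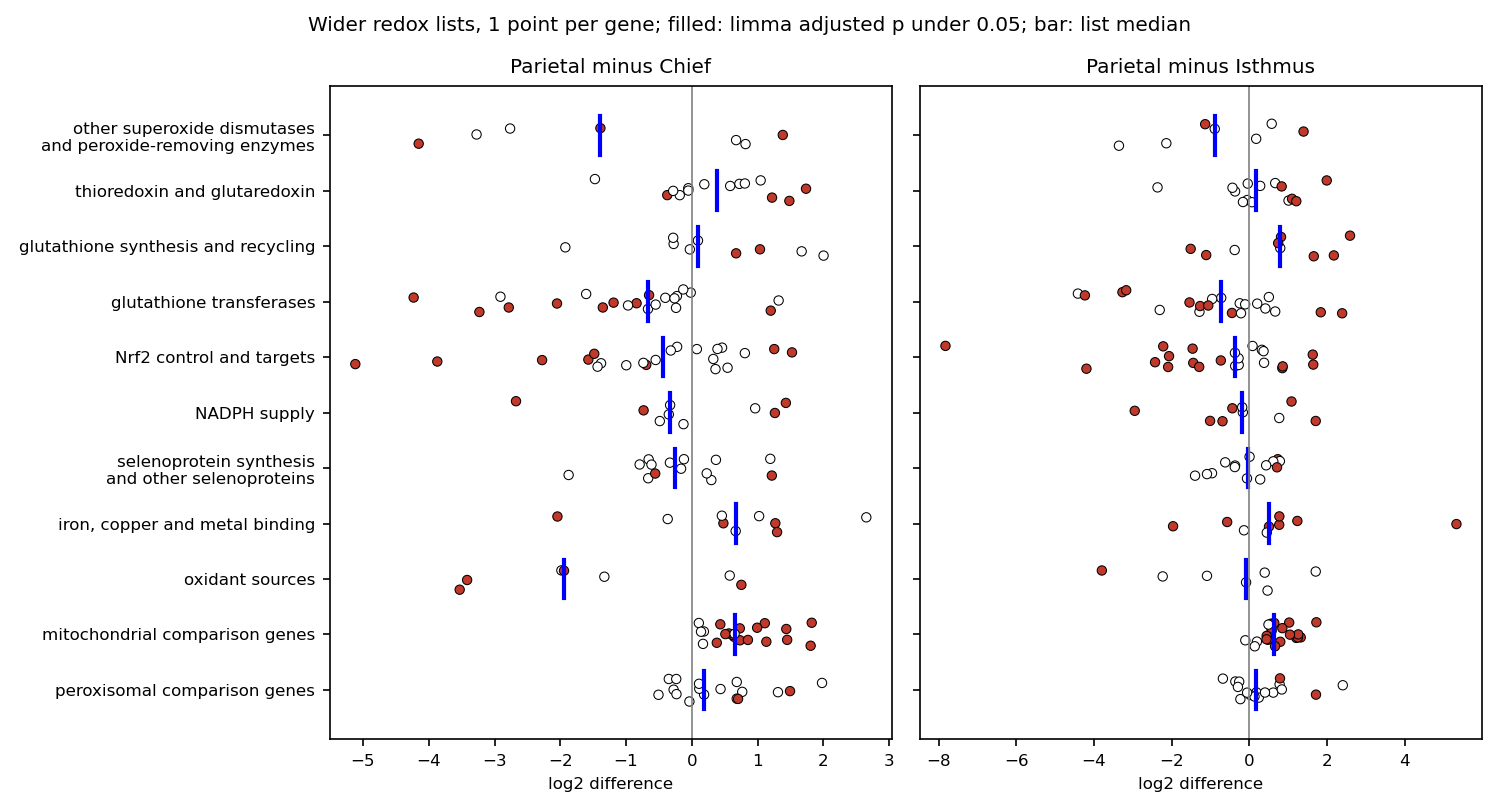
Log2 difference of each tested gene in 11 lists of redox, mitochondrial and peroxisomal genes, for Parietal minus Chief and Parietal minus Isthmus. Each point is a gene by its brightest probe set, filled where the adjusted p is under 0.05, and the bar is the list's median. The mitochondrial list has medians of 0.65 and 0.64 with no gene called lower, and the glutathione transferases have medians of -0.67 and -0.72 (0.03 and -0.41 after median centring).

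Mitochondrial and peroxisomal genes give the scale for the compartments in which Sod2 and Cat work. Of 21 tested mitochondrial genes, 16 rose, 0 fell and 5 were not called against Chief, and 17 rose, 0 fell and 4 were not called against Isthmus, with median differences of 0.65 and 0.64. Ndufs1, a subunit of respiratory complex I, was higher by 1.82 and 1.32 (adjusted p = 4.75e-05 and 0.000415), and the ATP and ADP carrier Slc25a4 by 1.81 and 1.73 (adjusted p = 0.000701 and 0.0008). The Sod2 differences of 1.30 and 1.77 thus lay above the median of this list, and the Prdx3 differences of 0.64 and 0.04 did not. Of 17 tested peroxisomal genes, 2 rose, 0 fell and 15 were not called in either Parietal comparison, with medians of 0.19 and 0.18, beside the 1.75 and 1.87 of Cat. After median centring 7 peroxisomal genes rose against Chief and 2 against Isthmus, with medians of 0.88 and 0.50, beside 2.44 and 2.19 for Cat. The mitochondrial calls then were 21 and 19, with medians of 1.34 and 0.96. Crat, the carnitine acetyltransferase, was called in both (1.49 and 1.72, adjusted p = 0.0199 and 0.00844), Ech1, an enzyme of fatty acid oxidation, against Chief (0.70, adjusted p = 0.0169) and Scp2, a lipid transfer protein, against Isthmus (0.79, adjusted p = 0.00352). The Crat call against Chief ended under 5 alternatives, among them the removal of any 1 Parietal array or of Chief replicate 3, and the Ech1 call under 4, among them without Parietal replicate 2 or Chief replicate 3 (adjusted p of up to 0.117 and 0.119). Whether Sod2 or Cat differ from these lists was not tested.

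No antioxidant gene was called between the sorted groups. Between Isthmus and Chief the 9 differences ran from -0.47 for Sod2 to 0.78 for Gclm, and 0 were called under each alternative. The 95% intervals for Cat and Nqo1, -0.54 to 0.28 and -0.21 to 0.46, were narrower than that of Txn2, -1.04 to 0.63. Of the 11 wider lists, 4 had a call between Isthmus and Chief. These were Tfrc among the metal genes, higher in Isthmus, and, lower in Isthmus, the transferase Gsto1 (-0.44, adjusted p = 0.046), the selenium carrier Selenop (-0.50, adjusted p = 0.0399) and Ero1b, a thiol oxidase of the endoplasmic reticulum (-2.41, adjusted p = 0.0313). All 4 were easily lost, with 8 to 13 of 19 alternatives ending each call and adjusted p-values of up to 0.318, 0.847, 0.702 and 0.177 in the order given. The alternatives included the removal of Isthmus replicate 1 and of Chief replicate 1 for each gene.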

How the data were processed

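The authors deposited log2 values of Affymetrix MAS5 signals, 1 per probe set and array. MAS5 is named per the submitters' processing notes, with no version in the sources used here. The log base and a floor at 0 were read from the deposited values: on the linear scale their 2% trimmed mean was 496 to 497 on each array, 1.99% to 3.91% of values were exactly 0, and the median log2 value ran from 5.80 to 6.70. None of the values of the antioxidant genes was 0. Total RNA of stomach samples was labelled with biotin, per the labels.

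Probe sets were named through the platform annotation: 34945 name 1 gene, 932 several and 9160 none, and 34741 of the first were matched to RefSeq. Probe sets that exceeded the median of an array on 3 or more of the 9 were tested, 25662 in all, with limma 3.58.1 in R 4.3.3 (group means, 3 contrasts, eBayes with an intensity trend). Adjustment was by Benjamini-Hochberg within each comparison over all tested probe sets, with calls at adjusted p under 0.05, two-sided. Fold changes are 2 to the power of the log2 difference. Tables and plots used Python 3.11.15, pandas 2.3.3, numpy 2.4.6 and matplotlib 3.10.9, and the fit was tested on simulated data.

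The members and lists were chosen with earlier results of these data known. Named were all probe sets of the antioxidant genes, in each wider list up to 3 called genes with the largest difference per comparison (or the brightest tested gene where none was called), and for 3 members the 3 nearest genes by pattern. Markers of other cell types were summed as linear signals. The alternatives were quantile normalization, median centring, pseudocounts of 16 and 64, no filter, 1 probe set per gene, only the compared groups, no intensity trend, the replicate number as a block, leaving out each array, and leaving out both arrays with high Xist. No proteins were printed, and scanner files were not used here.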

Additional observations from a re-analysis of the deposited data

How the results depend on the processing

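Over 19 alternatives, the probe sets and comparisons of the antioxidant genes gave 1107 values. Of these, 1053 kept their direction and side of the threshold or were called in neither fit, 40 lost a call, 14 gained one and 0 called values changed sign. Of the 9 genes, 5 were called between Parietal and Chief, but 9 after median centring (8 higher, 1 lower) and 3 with no intensity trend. Between Parietal and Isthmus 7 were called, but 4 with no intensity trend. Leaving out 1 array gave 4 to 6, 6 to 7, and 0 to 0 between Isthmus and Chief. Median centring moved the median difference of all tested probe sets to 0.52, 0.22 and 0.34, against -0.17, -0.10 and -0.03 with the deposited scaling. Over all probe sets, 4674 were called between Parietal and Chief (1948 higher, 2726 lower), against 2664 with 1 probe set per gene (11006 tested in place of 25662), 3063 with no trend and 2571 without both arrays with high Xist, and the split was 5230 higher and 1355 lower after median centring, or 1990 and 2272 after quantile normalization. Between Parietal and Isthmus 5200 were called (2318 higher, 2882 lower), against 3030 with 1 probe set per gene, and median centring gave 3334 and 1963. Between Isthmus and Chief 305 were called (57 higher, 248 lower), against 203 with quantile normalization, 517 with a pseudocount of 64, 150 with no filter, 182 with 1 probe set per gene, 145 with only the compared groups, 32 with no trend and 44 without both arrays with high Xist, and median centring gave 190 higher and 54 lower. Leaving out 1 array gave 3234 to 4583, 3718 to 5543 and 31 to 371. Median centring reversed the Parietal minus Chief differences of Gsto1 (0.043), Abcd3 (0.46), Selenop (0.14) and Txn1 (0.32), and quantile normalization that of Gsto1 between Isthmus and Chief (0.063). Median centring moves every difference of a comparison by the same amount, so those reversals belong to this common shift and are not particular to the genes named. Why quantile normalization reversed Gsto1 was not tested. With the replicate number as a block 5, 6 and 0 genes, and 4486, 5019 and 272 probe sets, were called. The numbers did not pair the samples, since same-numbered deviations correlated at -0.0128 to 0.0402.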

Other observations

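Further genes of the same lists differed between Parietal and the sorted groups. Slc40a1, the iron exporter ferroportin, read 9.05, 8.60 and 9.37 on the Parietal arrays, 5.88, 3.51 and 1.63 on the Isthmus arrays, and 4.02, 7.47 and 7.57 on the Chief arrays. All Parietal arrays lay above the others. It was at least 7.23-fold higher in Parietal than in Isthmus samples, with the Isthmus arrays set to the higher of their value and the array median (adjusted p = 0.0066), and the difference from Chief was not called (2.65, adjusted p = 0.147). The transferase Gstt2 read 5.96, 5.90 and 4.31 on the Parietal arrays, 9.16, 8.66 and 8.15 on the Isthmus arrays, and 9.76, 7.40 and 8.70 on the Chief arrays, and by the same bound was at least 6.56-fold lower in Parietal than in Chief and 6.73-fold lower than in Isthmus samples (adjusted p = 0.00814 and 0.00686). Aco1, the cytosolic aconitase that also acts as an iron sensor, was higher in Parietal than in Chief samples by 1.30 (adjusted p = 0.00513), and differed from Isthmus by 0.45 (adjusted p = 0.279). Sesn3, a sestrin, was higher in Parietal than in Isthmus samples by 1.99 (adjusted p = 0.00211), and differed from Chief by 1.05 (adjusted p = 0.0686). The mitochondrial genes Fh1, encoding fumarase, and Uqcrc1, a subunit of respiratory complex III, were higher by 1.45 and 1.44 than in Chief (adjusted p = 7.45e-05 and 0.000378) and by 1.21 and 1.26 than in Isthmus samples (adjusted p = 0.000238 and 0.000777). Each call above was kept under the 19 alternatives. Gstt1, another transferase, was lower in Parietal than in Chief samples by 2.78 on the log2 scale (adjusted p = 0.000804), which was kept too, and lower than in Isthmus samples by 1.54 (adjusted p = 0.0248), which ended under 7 alternatives, among them without Parietal or Isthmus replicate 1 or 2. Slc31a1, the copper importer, was higher in Parietal than in Isthmus samples by 1.24 (adjusted p = 0.0272), which ended under 6, among them the same removals. Atp5a1, of the ATP synthase, was higher in Parietal than in Isthmus samples by 0.48 (adjusted p = 0.00263, and up to 0.204 with quantile normalization or no intensity trend, which ended the call) and differed from Chief by 0.11 (adjusted p = 0.477). Whether the differences from Chief and from Isthmus differ was not tested.

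Limits of the measurement apply throughout. With 3 arrays a group, single arrays decided several calls, among them Txn2, Gpx1 and the dimmer Gclm probe set. MAS5 scaling sets each array to 1 target, so the choice of scaling shifts all differences, and no detection calls were used here. Parietal markers were bright on the sorted arrays, and their part in the antioxidant values was not tested.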
